A study of Mus musculus with 16 samples.

Results

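The genes described here are the protein-coding zinc finger genes of the mouse numbered Zfp900 to Zfp999, picked by symbol and annotated type. The range itself was chosen with earlier results of these data known. The rule of symbol and type was met by 63 of the 49585 gene identifiers listed, of which 33028 have a p-value. Another 302 protein-coding genes carry a Zfp number outside that range. Polyadenylated RNA of 2-cell mouse embryos had been sequenced with Smart-seq2, which covers whole transcripts and keeps no strand. There were 3 groups: 4 libraries of non-injected embryos, 6 of embryos injected as zygotes with dsLacz, double-stranded RNA against a bacterial gene, and 6 of embryos injected with dsSuv39h2, double-stranded RNA against the H3K9 methyltransferase gene Suv39h2. They are called non-injected, LacZ control and knockdown. All 3 groups had DBA fathers and mothers that were hybrids (F1:C57BL/6J × CBA/H), and all were cultured in KSOM medium. The design text gives pools of 5 embryos per library, whereas the extraction label speaks of 1 embryo, and the treatment label names a Suv39h1 mRNA that no group label mentions. The labels do not say whether the libraries of a group came from separate collections, so p-values measure the spread between these libraries.

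Most genes of this range encode KRAB zinc finger proteins. Such a protein binds DNA through a row of C2H2 fingers, each held by a zinc ion, and its KRAB domain recruits the corepressor Trim28, which brings the H3K9 methyltransferase Setdb1 and HP1 proteins. They are known for silencing endogenous retroviruses in early embryos and embryonic stem cells. The genes lie in clusters that grew by duplication, so neighbours resemble each other closely. In the longest annotated reading frame of each member, 59 of 63 members held the core of the KRAB domain within the first 150 codons, and 60 held at least 1 finger (pattern: C, 2 to 4 residues, C, 12 residues, H, 3 to 5 residues, H). The median was 11 fingers and the maximum 21, in Zfp974. No finger by this pattern was found in Zfp935, Zfp957 and Zfp972.

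On GRCm38, 45 members fell into 6 clusters, in which neighbouring starts lay at most 1000000 bases apart. The largest holds 16 members on chromosome 4 (145510759 to 147848366). Clusters of 10 members lie on chromosome 2 (175372436 to 178078476) and on chromosome 17 (21567008 to 22867134). Chromosome 7 holds 4 clustered members (42579783 to 43192109), chromosome 8 holds 3 (69209038 to 69749970) and chromosome 13 holds 2 (62453715 to 62571199). The other 18 members stand apart.

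The tables hold a mean over all libraries and the authors' fold changes between groups, with no column for a single library (0 such columns), so depth, spread within a group and overlap between groups could not be given. Fold changes are on the log2 scale and shrunken, ± is the standard error, and a gene is called when the DESeq2 adjusted p in the authors' deposited table is under 0.05. As a check of the labels, Suv39h2 stood at -1.95 ± 0.28 for knockdown over LacZ control in the authors' deposited table (adjusted p = 4.72e-08). Fewer cells of a type and less RNA per cell cannot be told apart in such pooled embryos. The 2-cell genes Zscan4c, Zscan4d, Zscan4f, Tcstv1, Tcstv3, Zfp352, Usp17lc and Obox6 had mean normalized counts of 257 to 3473 in the authors' deposited table. Of 8 cumulus and granulosa markers 3 had a mean count of 10 or more, led by Amhr2 (407), while Foxl2 (0.158) and Fshr (0.0454) were near 0 in the authors' deposited table. Of 7 sperm markers 0 reached 10.

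Transcripts of these zinc finger genes were common in 2-cell embryos. A mean normalized count of 10 or more was reached by 46 of 63 members (73%), against 226 of the other 302 Zfp-numbered genes (74.8%), and 26 members reached 100. Levels per kilobase of exon allow for the length of a gene's exons but not for sequence shared with other genes. That share differs between members, from 0.229% in Zfp957 to 77.4% in Zfp978 among those ranked below. Per kilobase, the median of those 46 members was 43.4, that of the other Zfp-numbered genes 20.3 and that of all protein-coding genes 33. Each is among genes with a mean count of 10 or more. The order of levels per kilobase began with Zfp979 (426), Zfp982 (419), Zfp957 (346), Zfp936 (310) and Zfp948 (279). Zfp982 has been described as a factor that promotes embryonic stem cell character. After them came Zfp985 (173), Zfp978 (170), Zfp944 (166), Zfp961 (156) and Zfp951 (153). These are means over the libraries of all 3 groups, so for members that differ between groups, such as Zfp936 and Zfp957, the order within 1 group may be another. Whether neighbours in that order differ could not be tested, because the spread over libraries is not in the tables.

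Levels differed widely between clusters. The chromosome 4 cluster was the most strongly expressed, with 14 of 16 members at a mean count of 10 or more and the highest level of all members, a mean count of 1751 for Zfp979. In the chromosome 17 cluster 8 of 10 members reached 10, led by Zfp948 (739), Zfp942 (590) and Zfp944 (463). The chromosome 2 cluster was nearly silent in these tables: only Zfp931 reached 10 (15.3), and Zfp967, Zfp968, Zfp969 and Zfp973 were listed at 0. Zfp965 and Zfp966 stood at 0.122 and 0.206, and Zfp971, Zfp970 and Zfp972 at 1.8, 2.71 and 4.53.

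The members listed at 0 share most of their transcript sequence with other genes. Of all stretches of 50 bases in the transcripts of a member, the share that also occurs in the transcripts of another gene was 84.7% to 100% in the 4 members listed at 0. Over the chromosome 2 cluster its median was 87.3%, against 65.5% on chromosome 13, 61.2% on chromosome 4, 18% on chromosome 7, 7.81% on chromosome 17, 2.26% on chromosome 8 and 2.49% in members outside clusters. The clusters' levels did not follow that order: the median level per kilobase was 53.2 on chromosome 4 and 6.43 on chromosome 8. Of the 12 members with more than 80% shared, 8 had a mean count under 10, whereas 16 of the 17 members with less than 5% shared had one of 10 or more. The exception among the latter was Zfp945 (2.67). The sources used here do not say how reads matching several genes were counted, and the part of such reads in the low levels was not tested. Zfp935 shares 98.5% of its exon bases with Gm49359 on the same strand, so its own reads may not be separable.

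**Figure D1:**
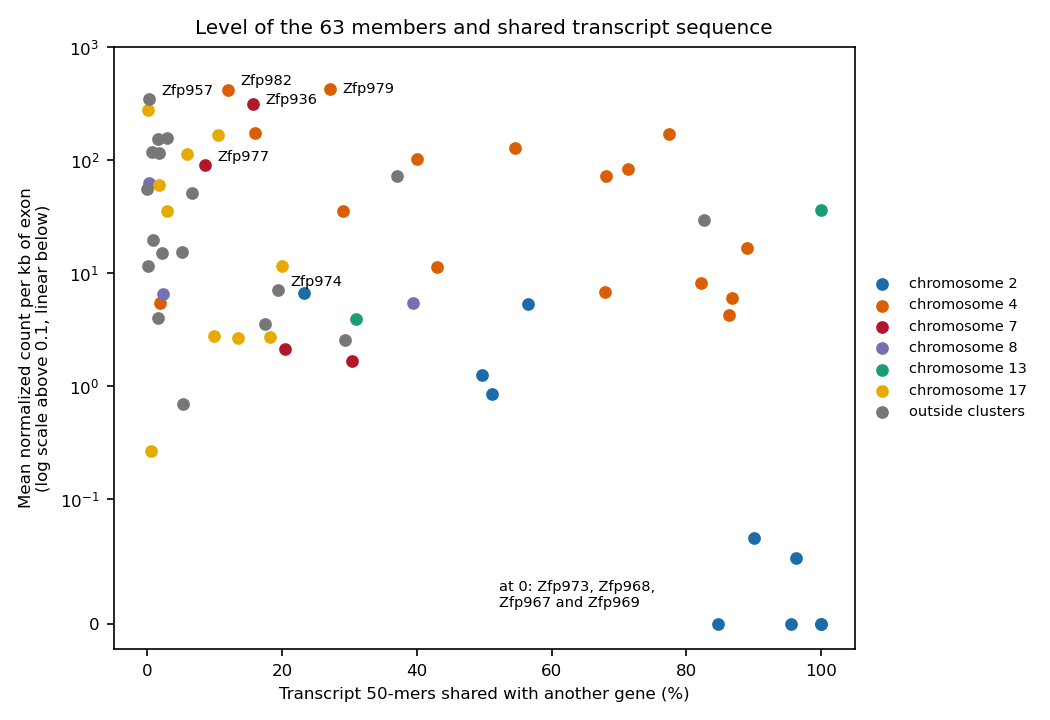
Each point is 1 of the 63 members, coloured by genomic cluster; the horizontal axis is the percent of its transcript 50-mers found in another gene, the vertical axis the mean normalized count per kilobase of exon over all libraries (log scale above 0.1, linear below). The members listed at 0 lie between 84.7% and 100% shared, and chromosome 4 members with over 50% shared still reach 170 (Zfp978).

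Both members called in knockdown over LacZ control lie in the small cluster on chromosome 7. These members, Zfp977 and Zfp936, were lower in knockdown than in both other groups, and its members Zfp976 and Zfp975, far less abundant, had fold changes of the same sign without a call. Zfp977 (ENSMUSG00000092335.1, chromosome 7, 42579783 to 42592547, minus strand) had a mean normalized count of 129 and 11 fingers. In the authors' deposited table it fell by 1.28 ± 0.34 in knockdown relative to LacZ control, or 2.44-fold (adjusted p = 0.041), and its value for knockdown over non-injected was -1.44 ± 0.35 (adjusted p = 0.003). LacZ control over non-injected gave -0.16 ± 0.36 for Zfp977 in the authors' deposited table (adjusted p = 0.998).

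Zfp936 (ENSMUSG00000064194.10, chromosome 7, 43114229 to 43192109, plus strand) was among the most abundant members, with a mean normalized count of 1015. It encodes 11 fingers and a KRAB core, as Zfp977 does. In the authors' deposited table it fell by 1.16 ± 0.30 in knockdown relative to LacZ control, or 2.24-fold (adjusted p = 0.0438). With non-injected embryos as the reference, knockdown stood at -1.17 ± 0.32 (adjusted p = 0.00931) and LacZ control at -0.0043 ± 0.32 (adjusted p = 0.998) in the authors' deposited table. Both calls against LacZ control are close to the threshold: with p-values adjusted over every gene that has one, the adjusted p was 0.0625 for Zfp977 and 0.0692 for Zfp936, by Benjamini-Hochberg adjustment of the DESeq2 p-values. Both comparisons of knockdown share the knockdown libraries, so the pair of values is not independent.

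Zfp976 (mean normalized count 10.5) stood at -0.70 ± 0.40 for knockdown over LacZ control and -0.60 ± 0.40 for knockdown over non-injected (adjusted p = 0.38 and 0.315), per the authors' deposited table. Zfp975 (7.43) stood at -0.24 ± 0.40 and -0.53 ± 0.40 and has no adjusted p there, per the authors' deposited table. At these counts the intervals are wide: the 95% interval of Zfp976 against LacZ control runs from -1.48 to 0.08. Between Zfp977 and Zfp936 the annotation places 5 other protein-coding genes, Gm17067, Vmn2r62, Gm2381, Vmn2r63 and Gm9268. None of these 5 reached a mean count of 10 and 0 calls were made among them in the 3 comparisons. None has an adjusted p for knockdown over non-injected, and only Gm17067 and Gm2381 have one for knockdown over LacZ control. Where it is missing no call was possible, so the missing calls do not show that these genes were unchanged. Their values for knockdown over LacZ control in the authors' deposited table ran from -0.59 (Gm2381) to 0.55 (Gm9268).

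**Figure D2:**
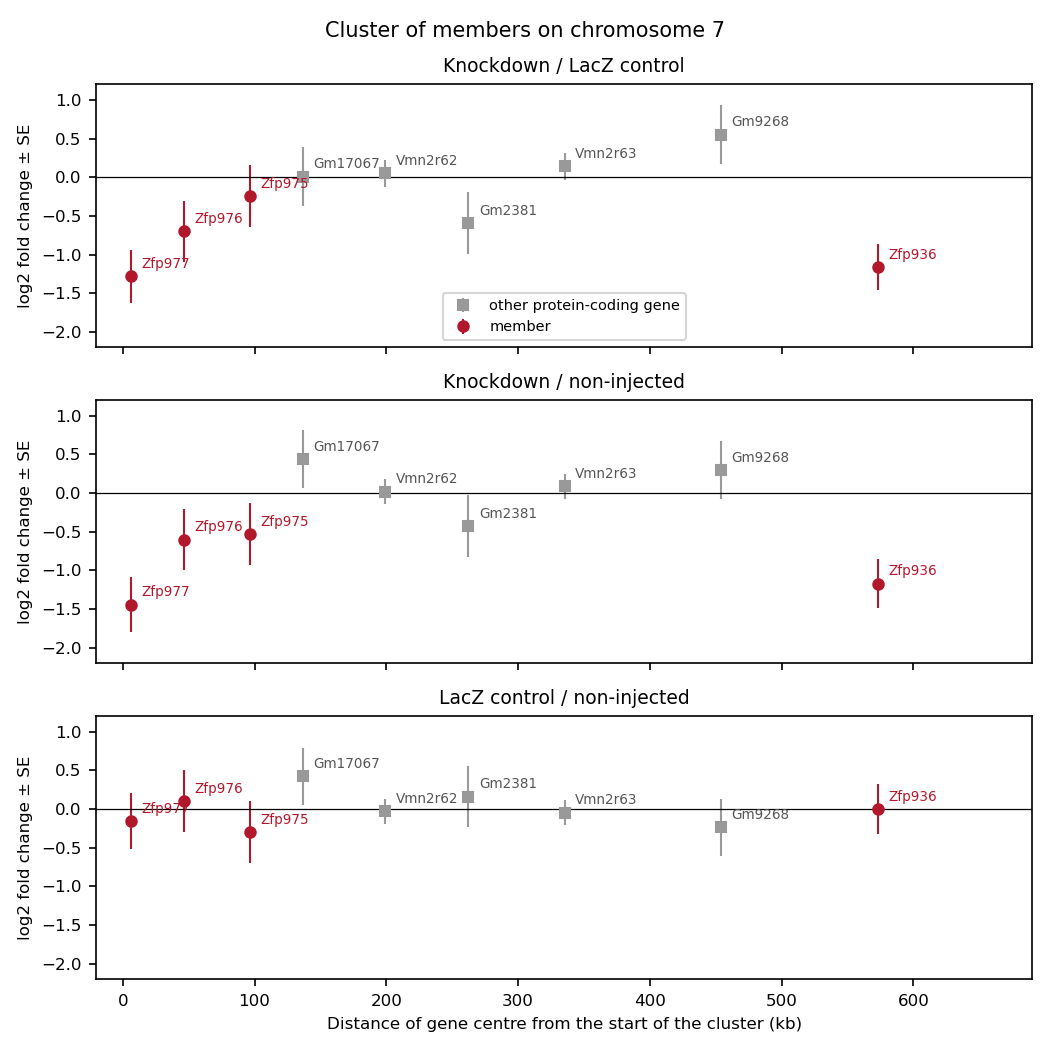
Log2 fold change with its standard error (vertical axes) of the 4 clustered members on chromosome 7 (circles) and the 5 other protein-coding genes between them (squares), against the distance of each gene's centre from the start of the cluster in kilobases, in 3 panels for the 3 comparisons. Zfp977 and Zfp936 lie below -1 in both panels with knockdown, at -1.28 and -1.16 against LacZ control, and near 0 for LacZ control over non-injected.

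The 4 clustered members on chromosome 7 start from closely similar promoters, which are shown because their 2 abundant copies were called together. Each is printed 5′ to 3′ on the strand of the gene, from 250 bases before to 50 bases after the start in RefSeq on GRCm38.p6, with matches to the searched motifs in capitals. All capitals are the CCAAT box or its reverse complement ATTGG, which is bound by the general activator NF-Y. Zfp977 lies at chr7:42592496-42592795 (minus strand), Zfp976 at chr7:42642555-42642854 (minus), Zfp975 at chr7:42692669-42692968 (minus) and Zfp936 at chr7:43177340-43177639 (plus). The start of Zfp936 in RefSeq lies 63361 bases inside the GENCODE gene.
Zfp977: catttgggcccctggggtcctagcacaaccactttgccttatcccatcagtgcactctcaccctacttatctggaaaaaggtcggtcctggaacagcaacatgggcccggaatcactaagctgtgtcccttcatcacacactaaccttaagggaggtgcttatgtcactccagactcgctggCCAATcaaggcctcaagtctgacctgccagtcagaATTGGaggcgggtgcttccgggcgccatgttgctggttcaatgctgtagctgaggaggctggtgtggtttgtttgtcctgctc
Zfp976: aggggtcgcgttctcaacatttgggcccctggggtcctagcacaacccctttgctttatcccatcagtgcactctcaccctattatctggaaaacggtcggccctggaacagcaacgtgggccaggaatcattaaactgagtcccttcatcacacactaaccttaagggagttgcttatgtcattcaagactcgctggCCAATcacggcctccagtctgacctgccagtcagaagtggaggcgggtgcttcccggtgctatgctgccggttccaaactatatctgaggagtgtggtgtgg
Zfp975: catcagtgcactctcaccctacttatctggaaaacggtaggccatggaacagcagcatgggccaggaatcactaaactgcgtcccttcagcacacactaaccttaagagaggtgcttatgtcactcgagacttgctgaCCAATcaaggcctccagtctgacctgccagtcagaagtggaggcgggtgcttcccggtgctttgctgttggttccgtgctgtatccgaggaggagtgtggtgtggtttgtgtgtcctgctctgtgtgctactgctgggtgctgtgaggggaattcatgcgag
Zfp936: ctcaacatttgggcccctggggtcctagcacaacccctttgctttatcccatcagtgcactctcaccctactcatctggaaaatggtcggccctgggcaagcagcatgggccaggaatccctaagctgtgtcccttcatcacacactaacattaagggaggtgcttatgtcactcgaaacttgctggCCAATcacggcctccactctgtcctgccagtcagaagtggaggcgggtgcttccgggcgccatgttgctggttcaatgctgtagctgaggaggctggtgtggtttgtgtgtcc
Pairwise identity over aligned bases was 88.4% to 92.9% among these 4 promoters, and highest between Zfp977 and Zfp936. Their reading frames were 88.1% to 95.5% identical, lowest between Zfp936 and Zfp977 and highest between Zfp975 and Zfp976. Such likeness was not particular to this cluster. The median promoter identity was 90% on chromosome 7, 97.6% on chromosome 2, 84.5% on chromosome 4, 64.2% on chromosome 17 and 65.9% on chromosome 8. Uncalled pairs reached 96.2% (Zfp987 and Zfp988, chromosome 4) and 99.6% (Zfp942 and Zfp944, chromosome 17). Median identity of reading frames was 90.8% on chromosome 7 and 85.9% on chromosome 4. Whether likeness of promoters or reading frames bears on the calls was not tested. The mean counts of Zfp976 and Zfp975 were low, 10.5 and 7.43, and the part of this in their missing calls was not tested. The forward CCAAT box begins 68 bases before the start in Zfp977, 52 in Zfp976, 112 in Zfp975 and 63 in Zfp936, and Zfp977 holds the reverse form as well, beginning 33 bases before the start.

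Promoters were found for 53 of 63 members. Besides Zfp936, the RefSeq start lay far from the GENCODE start in Zfp993 (98112 bases), Zfp935 (91699) and Zfp981 (12893). The window of Zfp993 lies outside its GENCODE gene and inside that of Zfp981. These promoters are counted all the same. On either strand, 40 of the 53 (75.5%) held CCAAT, against 37.4% of all 32851 promoters of the same length and 42.3% of 307 promoters of other Zfp-numbered genes. By cluster, CCAAT was present in 9 of 9 promoters on chromosome 2, 8 of 10 on chromosome 4, 4 of 4 on chromosome 7 and 3 of 10 on chromosome 17. The clusters on chromosomes 8 and 13 had it in 2 of 2 and 1 of 1. Members outside clusters had it in 13 of 17. Copies within a cluster are not independent of each other: promoters on chromosome 2 had a median pairwise identity of 97.6%. The GC box GGGCGG was found in 34% of member promoters and 35.7% of all. GGATTA, the core bound by Obox and Otx homeobox proteins, was found in 9.43% and 7.06%, and AAGATGGC, the core of the Yy1 site, in 1.89% and 2.75%. TATAAA was found in 0 of 53 member promoters and 13.6% of all, TCAAGGTCA (Nr5a2) in 0 and 0.423%, and the palindrome bound by Zbtb33 in 0 and 0.466%. No searched motif other than CCAAT occurs in the 4 printed sequences. These are matches of letters, not measured sites.

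Outside that cluster, Zfp974 fell furthest of all members with a mean count of 10 or more in knockdown over non-injected embryos. This gene with 21 fingers and no KRAB core by the pattern (ENSMUSG00000070709.12, chromosome 7, 27907392 to 27929460, minus strand) had a mean normalized count of 53. In the authors' deposited table it fell by 1.65 ± 0.35 from non-injected to knockdown (adjusted p = 0.000465), a 3.15-fold difference. It stood at -1.17 ± 0.34 for knockdown over LacZ control (adjusted p = 0.0598) and at -0.49 ± 0.36 for LacZ control over non-injected (adjusted p = 0.937) in the authors' deposited table, neither of them called. Its exons overlap the antisense gene Gm26891 by 465 bases, 6.19% of its exon length, and reads of that overlap carry no strand.

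Zfp934, in the pair on chromosome 13, fell by 1.22 ± 0.38 from non-injected to knockdown in the authors' deposited table (adjusted p = 0.0103, mean normalized count 22.6). It was not called against LacZ control (-0.66 ± 0.38, adjusted p = 0.316) in the authors' deposited table. Its neighbour Zfp935 stood at -0.15 for knockdown over non-injected and -0.29 for knockdown over LacZ control in the authors' deposited table, not called in either. Their exons share 25 bases on the same strand.

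Of the members, 1 was called higher in any of the 3 comparisons: Zfp957, in knockdown over non-injected. This abundant gene (mean normalized count 1112, chromosome 14, 79212355 to 79247369) has a reading frame without a KRAB core or a finger by the patterns used. In the authors' deposited table it rose by 0.66 ± 0.21 (adjusted p = 0.019). Its values for knockdown over LacZ control and LacZ control over non-injected were 0.33 ± 0.20 and 0.33 ± 0.22 (adjusted p = 0.443 and 0.863), neither called, per the authors' deposited table.

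Counted over all members, knockdown over LacZ control gave 2 calls among the 48 members with an adjusted p (4.17%), both lower, against a background of 0.899% of all genes called in either direction and 0.533% called lower. Among the other Zfp-numbered genes 2 of 236 were called. Both calls come from 1 cluster, so the share says nothing of the members as a whole. The median fold change over the 59 members with a p-value was -0.05, beside 0.02 over all genes. Among the 46 members with a mean count of 10 or more, 28 stood below 0 and 18 above. With the same minimum, 7242 of 14830 genes and 119 of 226 other Zfp-numbered genes stood below 0. No test of this split was run. At an unadjusted p under 0.05 there were 8 of the 59, against 8.13% of all genes. Of the 46 there were 7 (15.2%), close to the 15.1% of all genes with such a mean count.

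Among members with a mean count of 10 or more, the lowest values after Zfp977, Zfp974 and Zfp936 were those of Zfp947 (-0.94 ± 0.35, adjusted p = 0.158) and Zfp976 in the authors' deposited table. Zfp961 (-0.55 ± 0.24, adjusted p = 0.235) and Zfp948 (-0.64 ± 0.29, adjusted p = 0.205) followed among the abundant members in the authors' deposited table. On the higher side Zfp959, with a mean normalized count of only 8.67, stood furthest out at 0.81 ± 0.39 (adjusted p = 0.16) in the authors' deposited table, and it was the 1 member above 0 with an unadjusted p under 0.05. Among members with a mean count of 10 or more the highest values were those of Zfp994 (0.43), Zfp957 (0.33), Zfp991 (0.26), Zfp940 (0.24) and Zfp964 (0.23). These values come from the authors' deposited table, and no call was made among them.

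Knockdown over non-injected gave 5 calls among 46 members with an adjusted p (10.9%), 4 lower and 1 higher, against a background of 15.2% in either direction, 7.76% lower and 7.41% higher. The members' share was therefore not above that of all genes. For the other Zfp-numbered genes it was 20 of 230 (8.7%), of which 17 were lower. At an unadjusted p under 0.05 there were 8 of 59 members, against 14.8% of all genes, and 8 of the 46 with a mean count of 10 or more (17.4%), against 29.2%. The median over the 59 members was 0.06, beside 0.03 over all genes. In this comparison 6 of 8 maternal oocyte markers and 4 of 8 2-cell markers were called higher, with median fold changes of 0.82 and 0.67, and the part of such a shift in the members' values was not tested. The lowest value after Zfp974, Zfp977, Zfp934 and Zfp936 was that of Zfp938 (-0.73, adjusted p = 0.247) in the authors' deposited table. The highest were those of Zfp964 (0.81 ± 0.31, adjusted p = 0.059) and Zfp931 (0.70, adjusted p = 0.231) in the authors' deposited table. Zfp957 came next, followed by Zfp990 and Zfp979 (both 0.44) in the authors' deposited table.

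**Figure D3:**
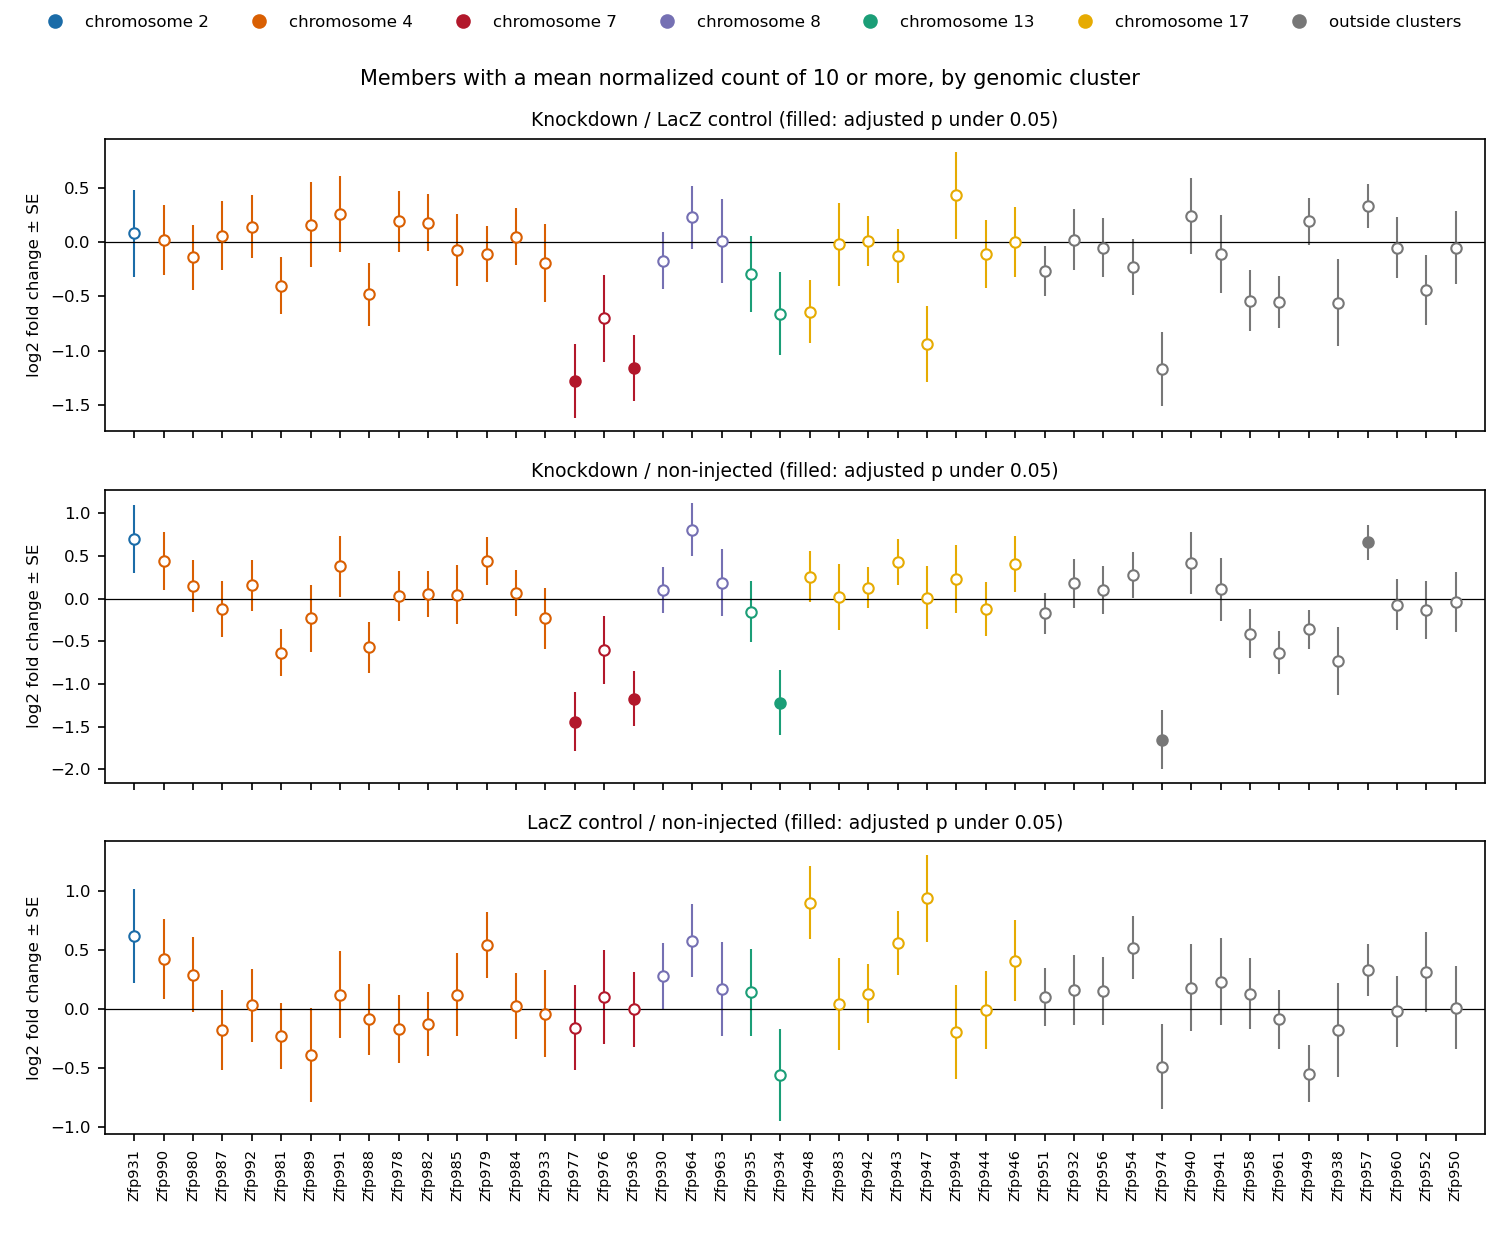
Log2 fold change with its standard error (vertical axes) of the 46 members with a mean normalized count of 10 or more, ordered by cluster and position along the horizontal axis, in 3 panels for the 3 comparisons; filled points have an adjusted p under 0.05. Filled points number 2, 5 and 0 from top to bottom, and Zfp977 and Zfp936 are filled in both upper panels.

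LacZ control over non-injected gave 0 calls by DESeq2 among 58 members with an adjusted p, against a background of 0.792% (0.529% higher and 0.263% lower). At an unadjusted p under 0.05 there were 5 of 59 members, against 6.55% of all genes, and 4 of the 46 (8.7%), against 11.9%. Those 5 were Zfp948 (0.90 ± 0.31), Zfp947 (0.94 ± 0.37) and Zfp943 (0.56 ± 0.27) on the higher side, all in the chromosome 17 cluster, and Zfp949 (-0.55 ± 0.24) and Zfp959 (-0.99 ± 0.38) on the lower side, in the authors' deposited table. Among members with a mean count of 10 or more, the 5 highest values also included Zfp931 (0.62) and Zfp964 (0.58) in the authors' deposited table. The 5 lowest of the same members also included Zfp934 (-0.56), Zfp974 (-0.49), Zfp989 (-0.39) and Zfp981 (-0.23) in the authors' deposited table. The median over 59 members was 0.12, beside 0.00 over all genes. In this comparison too 2-cell and maternal oocyte markers had medians above 0 (0.62 and 0.56, with 2 and 1 of 8 called higher), and their part in the members' values was not tested.

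In the chromosome 17 cluster the values of Zfp948 and Zfp947 ran in opposite directions in the comparisons that share LacZ control. Zfp948 stood at 0.90 for LacZ control over non-injected, -0.64 for knockdown over LacZ control and 0.26 for knockdown over non-injected in the authors' deposited table. Zfp947 stood at 0.94, -0.94 and 0.01 in the same order in the authors' deposited table. None of these values was called. The other members of the cluster with a mean count of 10 or more were Zfp942, Zfp943, Zfp944, Zfp946, Zfp983 and Zfp994. In knockdown over non-injected all 8 lay between -0.12 and 0.43 in the authors' deposited table. Of these 8, 0 were called, against 15.2% of all genes.

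The chromosome 4 cluster, the most abundant, gave 0 calls by DESeq2 in all 3 comparisons. Its 14 members with a mean count of 10 or more ranged from -0.48 (Zfp988) to 0.26 (Zfp991) for knockdown over LacZ control in the authors' deposited table, with a median of 0.03. For knockdown over non-injected the range was -0.63 (Zfp981, adjusted p = 0.0898) to 0.44 in the authors' deposited table. Unadjusted p-values under 0.05 numbered 0 for knockdown over LacZ control, 1 with non-injected as its reference, and 0 between both control groups. Zfp979 stood at -0.11 ± 0.26 for knockdown over LacZ control in the authors' deposited table, with an interval of -0.62 to 0.41. The interval of Zfp982 was -0.32 to 0.69 around 0.18 in the authors' deposited table. The values of Zfp977 and Zfp936, -1.28 and -1.16, lie outside both intervals. Their own intervals, -1.95 to -0.61 and -1.76 to -0.57, overlap that of Zfp979. All these intervals are centred on shrunken fold changes, and differences between members were not tested. The remaining members here are Zfp978, Zfp980, Zfp984, Zfp985, Zfp987, Zfp989, Zfp990, Zfp992 and Zfp933, with Zfp986 and Zfp993 under a mean count of 10.

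On chromosome 8 the clustered Zfp930, Zfp963 and Zfp964 were not called in any comparison, with values for knockdown over LacZ control of -0.17 to 0.23 in the authors' deposited table. Other members outside clusters that were not called include Zfp932, a KRAB protein known to bind retroviral sequences in embryonic stem cells, at 0.02 ± 0.28 for knockdown over LacZ control in the authors' deposited table. Zfp951 stood at -0.27 ± 0.23 and Zfp958 at -0.54 ± 0.28 in the same comparison of the authors' deposited table. Exons of 12 members overlap those of another gene. Zfp963 shares 40.8% of its exon bases with Gm20422 on the same strand, and Zfp961 overlaps Cyp4f18 on the opposite strand by 181 bases.

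The corepressors with which KRAB proteins work were measured as a list of 20 genes. It holds Trim28, Setdb1 and its partner Atf7ip, the HP1 genes Cbx1, Cbx3 and Cbx5, subunits of the NuRD deacetylase complex, HUSH subunits, Smarcad1, Morc3, DNA methylation factors and the KRAB proteins Zfp57 and Zfp809. By DESeq2 0 of 20 were called in knockdown over LacZ control, where 6 had an unadjusted p under 0.05 (1 of them higher), against 15.1% of all genes with a mean count of 10 or more, and the median was -0.19. With non-injected embryos as the reference 3 of 20 were called, 2 lower and 1 higher, a share close to the 15.2% of all genes, and the median was -0.25. The HUSH genes Fam208a (-1.15 ± 0.24, adjusted p = 0.000198) and Pphln1 (-0.84 ± 0.25, adjusted p = 0.0132) fell and the HP1 gene Cbx1 rose (1.05 ± 0.24, adjusted p = 0.000779) in the authors' deposited table. LacZ control over non-injected gave 0 calls, and 3 genes had an unadjusted p under 0.05 (2 of them higher). Trim28 stood at -0.37 ± 0.20 and Setdb1 at -0.39 ± 0.22 for knockdown over LacZ control (adjusted p = 0.393 and 0.429), neither called, per the authors' deposited table.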

How the data were processed

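The submitters' processing notes name STAR 2.5.2b, SAMtools, HTSeq 0.9.1, DESeq2 1.18.1 and the build GRCm38.p5. RUVSeq, which models unwanted variation, and the shrinkage of fold changes appear in the table names alone. Per the file headers, the deposited gene tables hold a mean normalized count (a signal, divided by size factors), the log2 fold change and its error, a test statistic (a score), and p-values before and after adjustment, for each of 3 comparisons. The repeat tables were not used. The gene tables are on 1 scale: the fold changes of 2 comparisons sum to the third within 4.16e-08.

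Gene symbols came from GENCODE vM21 (GRCm38), matched without version for 49326 identifiers. Members, lists and named genes were chosen with earlier results of these data known. Named were members called in any comparison, the most abundant, the outermost fold changes, clustered members with a mean count of at least 10 and members listed at 0. Benjamini-Hochberg adjustment (Python 3.11.15, pandas 2.3.3), tested on simulated data, gave the deposited adjusted p-values back within 1.84e-05. Fingers and KRAB cores were counted in translated GENCODE transcripts, in place of the planned protein table, 50-mers came from the same transcripts, promoters from RefSeq, and identities from global alignment (Biopython 1.88). The depth per library is unknown, and no refit was possible. Alternatives were other adjustments, count minimums, thresholds, centring and cluster gaps.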

Additional observations from a re-analysis of the deposited data

How the results depend on the processing

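No paired analysis was possible because the tables hold no values of single libraries; for the same reason leaving out a replicate could not be run. For knockdown over LacZ control the 2 calls became 0 with adjustment over every gene with a p-value (Zfp977 0.0625, Zfp936 0.0692) and 0 at an adjusted p under 0.01. They remained 2, the same genes, with adjustment over protein-coding genes, with a mean count of at least 10 or 100 and with a log2 fold change of at least 1, and Zfp974 joined them at an adjusted p under 0.1. For knockdown over non-injected the 5 calls became 3 at an adjusted p under 0.01 and 8 under 0.1, and stayed at 4 or 5 under the other settings. With a mean count of at least 100 the 4 calls shared 3 of the 5 and included Zfp961. LacZ control over non-injected kept 0 calls under all 7 settings. With adjustment over every gene or over genes with a mean count of at least 10, those 2 were the only adjusted p-values of single members to change sides among 290 recomputed values. Over the settings the members' median fold change ranged from -0.11 to -0.02 for knockdown over LacZ control, from 0.01 to 0.08 for knockdown over non-injected and from 0.10 to 0.13 for LacZ control over non-injected. One of these settings, leaving out members with over 50% shared 50-mers (-0.09, 0.08 and 0.13), was added after the data had been seen. With gaps of up to 500000 bases 45 members formed 8 clusters in place of 6, because the chromosome 2 cluster split into 3, and with gaps of up to 2000000 bases 47 members formed 7. Mean counts were low in the chromosome 2 cluster (at most 15.3), in Zfp975 (7.43) and in Zfp976 (10.5). The part of this in their missing calls was not tested.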
